A study of Mus musculus with 6 samples.

Results

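Genes of the bone morphogenetic protein (BMP) pathway were examined in aortic roots of klotho-deficient and wild-type mice. The list was chosen by name and held 37 genes, namely 9 ligands, 9 secreted antagonists and modulators, 8 receptors (counting the decoy receptor Bambi), 6 Smads and 5 target genes. Of these, 35 were measured among 18193 genes on the array, and no probe set used here named Bmp3 or Gdf6 alone. Each gene was read from its brightest probe set, a group of short probes read together, some of which can match more than 1 transcript. A gene was called above background when its mean log2 signal exceeded 161.8, the highest signal of 27 control probe sets against Bacillus genes, and 30 of the 35 did so.

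Klotho-deficient mice were homozygous for a mutant klotho allele and wild-type mice were homozygous for the normal allele, both on the C57BL/6J albino strain and 6 to 6.5 weeks old. The klotho protein works with FGF receptors in the response to FGF23, a hormone that lowers phosphate. The dissected root held the aortic valve leaflets, the annulus and a piece of the ascending aorta. Each array carried RNA pooled from 3 mice, and each genotype had 3 arrays, or 9 mice. The p-values therefore set the genotype difference against the spread between such pools, and the spread between single mice was not observed. In such bulk tissue, fewer cells of a type and less RNA per cell cannot be told apart.

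BMPs are secreted dimers of the TGF-beta superfamily, first known for inducing bone and cartilage. They bind pairs of type I and type II serine/threonine kinase receptors, which phosphorylate Smad1, Smad5 and Smad9. These enter the nucleus with Smad4 and switch on the Id genes, while Smad6 and Smad7 feed back to block the receptors. In the heart and aorta, BMPs shape the valve cushions during development and have been linked to calcification of valves and vessels.

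Markers of cell types of the aortic root were present, with smooth muscle (9 of 9), valve interstitial cells and fibroblasts (10 of 10) and endothelium (12 of 12) above background, as were 73.2% of all genes. Markers of cardiomyocytes (11 of 11), mesothelium (8 of 8) and macrophages (8 of 8) were also above background. Klotho itself (Kl) gave 138.3, 217.4 and 189.1 in klotho-deficient roots and 166.7, 184.7 and 202.1 in wild type. The position of its probes against the mutant allele was not examined, so these values say nothing about genotype. Signal of the Y-linked gene Kdm5d reached 2516.3 in klotho-deficient replicate 1 and 2512.1 to 3267.9 across the wild-type arrays. Klotho-deficient replicate 2 (16.1) and replicate 3 (5.8) were without Y-linked transcripts, and these 2 pools stood apart. Xist, made from the inactive X chromosome of females, was high on all 6 arrays. It gave 26303.6, 36290.2 and 19873.8 in klotho-deficient roots and 22337.6, 20770.3 and 20581.7 in wild type. By Kdm5d and Xist, pools with Y-linked signal mixed the sexes and the 2 without it held females. Sex thus varied partly along genotype, and its part in the genotype differences was not tested. Gapdh control probes, whose 3' signal exceeds their 5' signal where RNA is shortened, gave a 3' over 5' ratio of 7.179 on wild-type replicate 3 and 3.229 to 4.083 elsewhere. The value without an array is given for some genes only, so a gene shown without such a value is not thereby stable.

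Differences of BMP pathway genes between the genotypes were spread much like those of all genes, and some had wide confidence intervals at this sample size. Among the 30 above background, 19 had a higher mean log2 signal in klotho-deficient roots and 11 a lower one, with a median difference of 0.04 (klotho-deficient minus wild type, log2 scale) against -0.01 over all 13322 genes above background. The differences of 27 of these 30 lay within 0.5 of 0 (90%, against 87.7% of all genes above background). Bmp2, which promotes cartilage and bone formation, and Bmper, a secreted BMP-binding protein, had the highest differences, at 1.15 and 0.78. Acvr2b, a type II receptor, followed at 0.58, and Acvrl1, a type I receptor of endothelium, was the lowest at -0.32, or -0.09 without wild-type replicate 3.

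In limma, with Benjamini-Hochberg adjustment over all 18193 genes, 0 of the 35 passed an adjusted p of 0.05, and neither did any other gene (0%). At an unadjusted p under 0.05, 0 of the 35 were higher (3.25% of all genes) and 1, Gdf5, was lower (3.16%). The genotypes did not overlap for 1 gene with higher klotho-deficient values, Acvr2b (6.63% of all genes), and for 1 with lower values, Gdf5 (6.84%). These counts were near those of all genes. Without klotho-deficient replicate 3, 9 of the 30 were higher and 21 lower, with a median of -0.14, without klotho-deficient replicate 2 these were 26, 4 and 0.17, and without wild-type replicate 3 they were 18, 12 and 0.06. The balance of signs thus rested on klotho-deficient replicates 2 and 3.

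**Figure D1:**
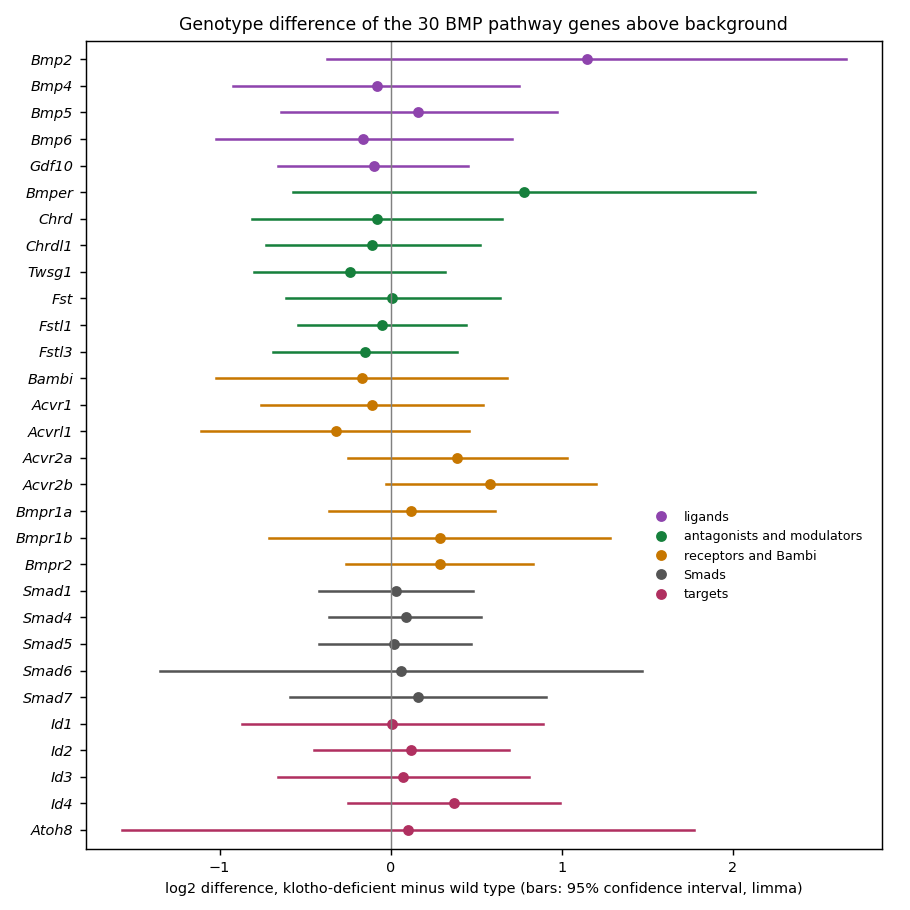
Difference in mean log2 signal (horizontal axis, klotho-deficient minus wild type) for the 30 BMP pathway genes above background, coloured by role; points are limma estimates from 3 arrays per genotype and bars are 95% confidence intervals. All 30 intervals include 0, and those of Bmp2, Bmper, Smad6 and Atoh8 are wide.

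**Figure D2:**
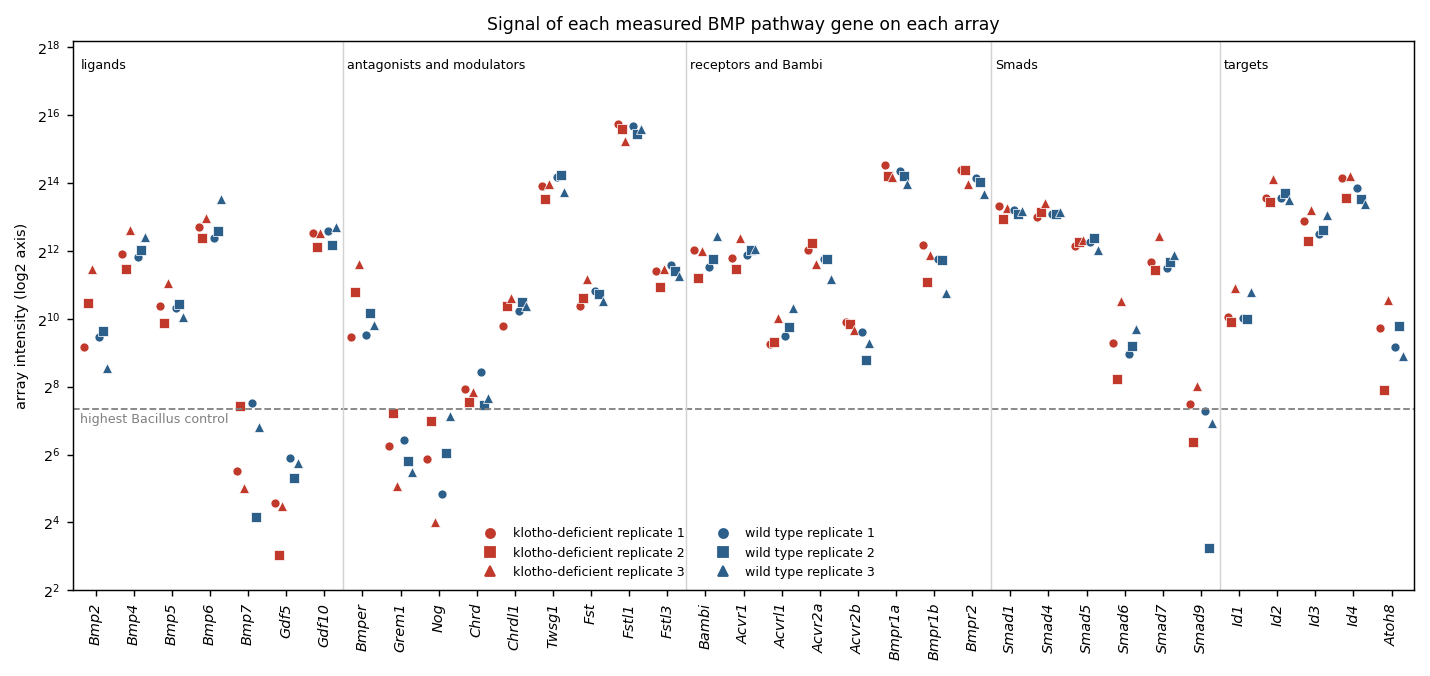
Array intensity (vertical log2 axis) of the 35 measured BMP pathway genes on each of the 6 arrays, with klotho-deficient arrays in red, wild-type arrays in blue and symbols marking replicates. The dashed line is the highest Bacillus control at 161.8; Bmp7, Gdf5, Grem1, Nog and Smad9 lie mostly below it.

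Among the ligands above background, Bmp2 varied most between arrays. It measured 580.5, 1412.1 and 2839.9 on klotho-deficient replicates 1, 2 and 3 and 707.5, 801.2 and 377.6 on the wild-type arrays. Klotho-deficient replicates 2 and 3 were above every wild-type array, and replicate 1 lay inside the wild-type range, so the groups overlapped. The means were 1611 ± 1143 and 628.8 ± 222.5 (SD, n = 3), a difference of 1.15 ± 0.62 (SE, 95% confidence interval -0.37 to 2.66) that did not pass in limma (adjusted p = 0.807). Leaving out klotho-deficient replicate 1 gave 1.74, and leaving out replicate 3 of that genotype gave 0.60. A term for the 2 arrays without Y-linked transcripts gave -0.04, but it leaves only klotho-deficient replicate 1 against wild type. That term thus cannot separate genotype from what set those 2 arrays apart.

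Bmper (BMP-binding endothelial regulator), which can either promote or restrain BMP signalling, followed Bmp2 across the klotho-deficient arrays. It gave 700.1, 1764.9 and 3111.1 there and 728.9, 1159.1 and 899.3 in wild type. Again replicates 2 and 3 exceeded all wild-type arrays and replicate 1 did not. The difference was 0.78 ± 0.55 (adjusted p = 0.831 in limma). It was 1.36 without klotho-deficient replicate 1 and 0.28 without klotho-deficient replicate 3. With the term for Y-linked transcripts, which again leaves only klotho-deficient replicate 1 against wild type, it was -0.38.

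Several markers of cartilage, which can be present at the hinge of mouse valve leaflets, were high on the same arrays. The summed level of 12 measured cartilage markers was 8110, 20620 and 44630 on klotho-deficient replicates 1, 2 and 3 and 10320 to 13900 in wild type. Col2a1, the main collagen chain of cartilage, was 242.2, 2890.8 and 4225.9 against 193.2, 417.6 and 296. Sox9, the chondrogenic transcription factor, was 1195.3, 2047 and 3565 against 1169.6, 1424.3 and 755.3. Of the 12, 9 were higher in klotho-deficient roots (median 0.69), and Col11a2, Matn1 and Matn3 were below background. Hapln1 and Chad, both above background, did not follow this pattern. Hapln1 was 1377.5, 2285.1 and 1782 against 2412.1, 2049 and 1085.3. Chad was 166.3, 414.3 and 4638.8 against 366, 1285.3 and 761.3. Comp alone gave 16900.9 on klotho-deficient replicate 3, a large part of the sum there. The pattern was not limited to cartilage genes. The cardiomyocyte marker Myh7 was 1658.6, 11045.1 and 15119.8 against 1113, 1639.5 and 4194.5, while the other cardiomyocyte markers did not follow it. How many of all genes had this pattern was not counted. The part of cartilage content in the Bmp2 and Bmper values was not tested.

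**Figure D3:**
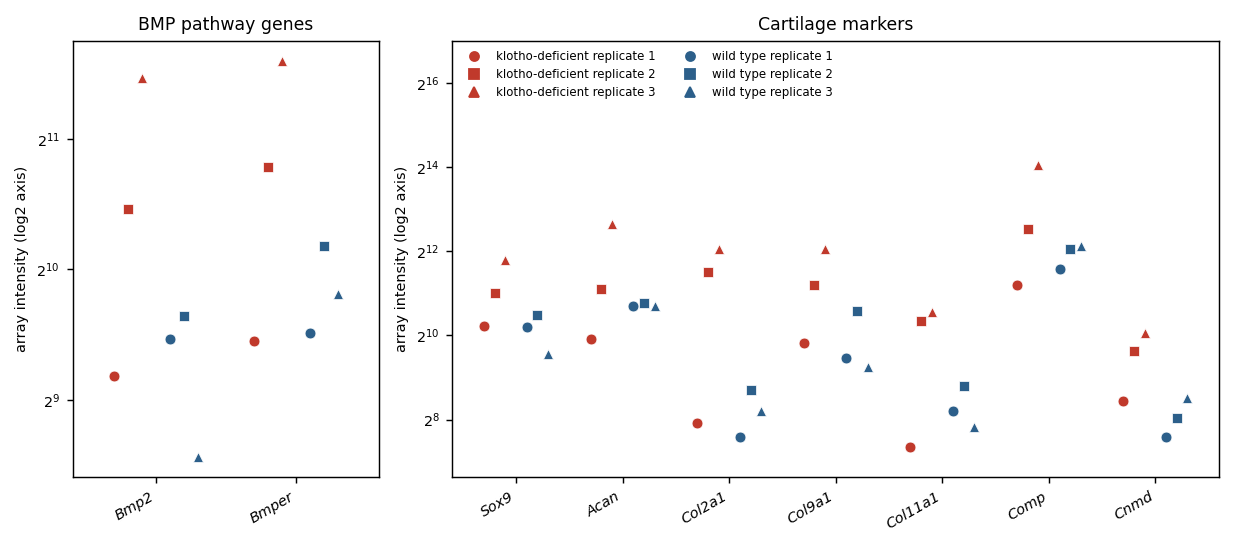
Array intensity (vertical log2 axes) of Bmp2 and Bmper (left) and of 7 cartilage markers (right) on the 6 arrays, klotho-deficient in red and wild type in blue. For Bmp2, Bmper, Sox9 and Col2a1, klotho-deficient replicates 2 (squares) and 3 (triangles) lie above the wild-type arrays and replicate 1 (circles) does not. The cartilage markers Hapln1 and Chad, which did not follow this pattern, are not drawn.

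Bmp4, which patterns the outflow tract, gave 3860.5, 2850 and 6285.3 in klotho-deficient roots and 3603.2, 4159.9 and 5488.9 in wild type. Its highest and lowest arrays were both klotho-deficient, and the means were close (4332 ± 1766 against 4417 ± 968.8; -0.08 ± 0.34). Bmp5, a ligand of the same subgroup as Bmp6 and Bmp7, also had klotho-deficient replicate 3 highest and replicate 2 lowest of the 6 arrays, with 1326.5, 936.1 and 2137.9 against 1278.4, 1388.5 and 1061.4.

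Bmp6, a ligand made by endothelium that also controls hepcidin in the liver, gave 6644.4, 5293 and 8099 in klotho-deficient roots and 5352.8, 6162.7 and 11920.7 in wild type. Wild-type replicate 3 stood above the other 5 arrays. The difference was -0.16 ± 0.36 (adjusted p = 0.951 in limma) and turned to 0.20 without that array. The summed level of 12 endothelial markers was 85270 on wild-type replicate 3 and 43640 to 53960 over the 5 remaining arrays, and 11 of the 12 were highest on that array. None was at 0, and their part in the Bmp6 values was not tested. Gdf10, also called Bmp3b, varied least among the ligands above background, at 5400 ± 845.4 and 5818 ± 1050.

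The remaining measured ligands were dim. Gdf5, a joint and tendon growth factor, was below background on all 6 arrays, at 23.6, 8.3 and 22.5 in klotho-deficient roots and 59.4, 39.6 and 53.4 in wild type. The arrays did not overlap (unadjusted p = 0.0113, adjusted p = 0.67 in limma), but no fold is given at signals below the Bacillus controls. Bmp7 exceeded background on 1 array of each genotype.

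Secreted antagonists other than Bmper had small differences. Twsg1, a chordin partner that can help or hinder ligand release, gave 15492.2, 11802.5 and 16115 in klotho-deficient roots and 18556.1, 19293.2 and 13644.7 in wild type. Wild-type replicates 1 and 2 were above all klotho-deficient arrays and replicate 3 was not (-0.24 ± 0.23, adjusted p = 0.876 in limma). Leaving out wild-type replicate 3 gave -0.40, and leaving out klotho-deficient replicate 2 gave -0.10. Its 3 other probe sets gave -0.19, -0.10 and -0.19.

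The follistatin family, which traps activins and some BMPs, had small differences, with 95% confidence intervals of -0.61 to 0.64 for Fst, -0.54 to 0.44 for Fstl1 and -0.69 to 0.39 for Fstl3. Fstl1, a follistatin-like glycoprotein of mesenchyme, measured 54398.1, 49087.4 and 38763.6 against 52164.7, 44856.2 and 49110.9. The highest and the lowest Fstl1 arrays were both klotho-deficient (-0.05 ± 0.20; the other probe set gave -0.07, and the sign turned to 0.02 under quantile normalization). Fst was 1727 ± 510.7 against 1669 ± 177, and Fstl3 was 2490 ± 470.5 against 2740 ± 329.1.

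Among the chordin family, Chrdl1 measured 1258 ± 339.6 against 1322 ± 133.5, and Chrd, chordin itself, was near background at 220.7 ± 27.99 against 242.7 ± 92.56. Grem1 (gremlin) and Nog (noggin), which bind BMPs and keep them from their receptors, were below background on all 6 arrays. Their levels thus could not be compared.

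Of the 8 receptors, 5 had higher and 3 lower means in klotho-deficient roots (median difference 0.20), and none passed. Acvr2b, a type II receptor shared by activins and BMPs, was the member above background whose arrays did not overlap. It gave 949.8, 921.1 and 822.2 in klotho-deficient roots and 774.8, 438.8 and 627.3 in wild type. The nearest arrays of the 2 genotypes, klotho-deficient replicate 3 and wild-type replicate 1, were close. The means were 897.7 ± 66.94 and 613.6 ± 168.4, a 1.5-fold difference (0.58 ± 0.25, 95% confidence interval -0.03 to 1.20, adjusted p = 0.77 in limma). Its 2 other probe sets, both dimmer, each gave 0.70, with overlap. The difference was 0.36 without wild-type replicate 2 and 0.77 without wild-type replicate 1.

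The related type II receptor Acvr2a gave 4159.3, 4840.7 and 3156.1 against 3498.3, 3466.4 and 2326.7 (0.39 ± 0.26). Its other probe set gave 0.45. Klotho-deficient replicate 3 lay below wild-type replicates 1 and 2, so the groups overlapped. Bmpr2, the type II receptor most specific to BMPs, was 19530 ± 3071 against 16030 ± 2682 (0.29 ± 0.22), while its other probe sets gave -0.04 and -0.10.

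Type I receptors had differences of both signs. Acvrl1, also called ALK1, gave 609.5, 641.2 and 1048 in klotho-deficient roots and 723.6, 868 and 1280.6 in wild type (-0.32 ± 0.32, adjusted p = 0.88 in limma). As with the endothelial markers, wild-type replicate 3 was its highest array, and the difference was -0.09 without that array. It was -0.57 without klotho-deficient replicate 3 and -0.18 without klotho-deficient replicate 1. Of the 12 endothelial markers, 10 were lower in klotho-deficient roots (median -0.34), and their part in the Acvrl1 values was not tested. Its other probe set showed this more sharply, with 1759.9 on that array and 624.8 to 827.4 on the other 5. Acvr1 (ALK2) was 3898 ± 1263 against 4084 ± 268.3, and Bmpr1b (ALK6) 3500 ± 1243 against 2865 ± 993.3. Bambi, which lacks a kinase domain and damps signalling, gave 4138.8, 2338.5 and 4100.9 against 2947, 3444.4 and 5571.4.

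Bmpr1a (ALK3), a type I receptor needed for heart valve development, gave different answers by probe set. The brightest measured 23575.7, 19003.5 and 18384.9 in klotho-deficient roots and 21007.2, 18864.4 and 16082 in wild type (0.12 ± 0.20, adjusted p = 0.927 in limma), and 3 others gave 0.10 to 0.20. Probe set 1451729_at, assigned to the same source transcript as those 4, measured 1105.1, 1030 and 1059.7 against 2329.4, 2466 and 1714.8. On it every klotho-deficient array was below every wild-type array, a difference of -1.01 ± 0.22 with an adjusted p of 0.751 in limma over all 45037 probe sets (unadjusted p = 0.00369). Such separation downward was seen in 5.71% of all probe sets. The sixth probe set, 1445413_at, also separated the genotypes but was below background on all 6 arrays. With the mean of all probe sets, Bmpr1a turned to -0.52. Probe set 1451729_at was singled out after its values were seen.

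**Figure D4:**
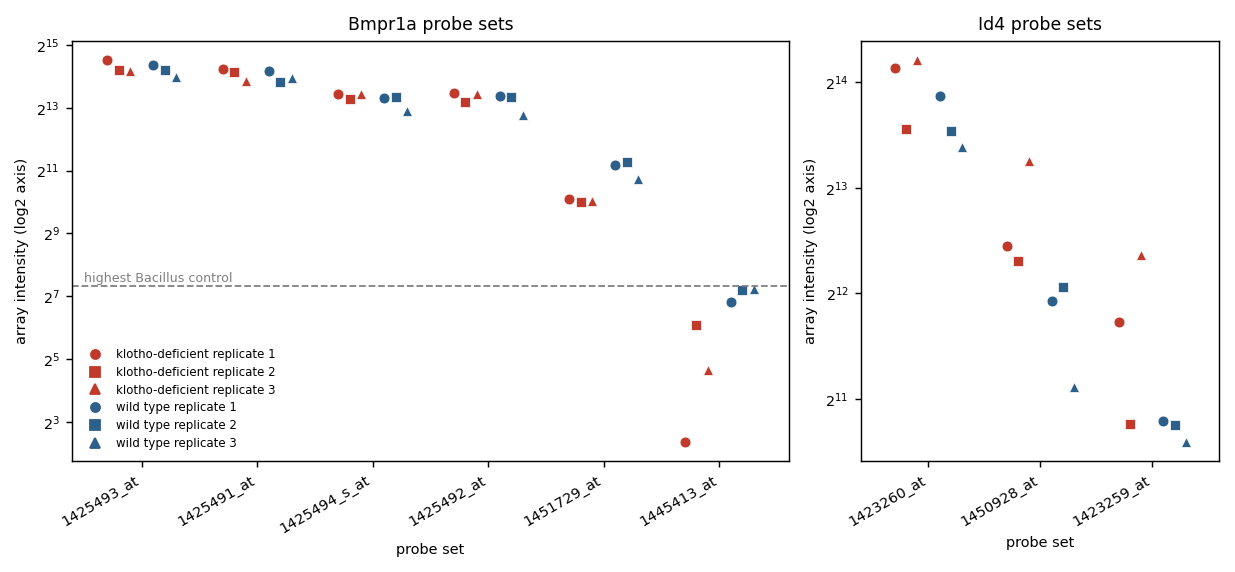
Array intensity (vertical log2 axes) of each probe set of Bmpr1a (left) and Id4 (right) on the 6 arrays, klotho-deficient in red and wild type in blue; the dashed line on the left is the highest Bacillus control. On Bmpr1a probe set 1451729_at the klotho-deficient arrays cluster at 1030 to 1105.1, below the wild-type arrays, while the 4 brighter probe sets overlap.

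The Smads that carry the signal had differences near 0. Smad1 gave 10348.4, 7850.3 and 9777.8 in klotho-deficient roots and 9391.7, 8638.4 and 9270.1 in wild type, with the klotho-deficient arrays at both ends (0.03 ± 0.19, adjusted p = 0.988 in limma). Smad5 was 4854 ± 279.8 against 4799 ± 613.1, and the shared partner Smad4 was 9441 ± 1426 against 8835 ± 211.3. Their 95% confidence intervals, -0.42 to 0.48 for Smad1, -0.42 to 0.47 for Smad5 and -0.36 to 0.53 for Smad4, bound the differences these arrays allow. The other Smad1 probe sets gave 0.10 and 0.87, the latter at 5 of 6 arrays above background. Smad9 gave 180.7, 81.8 and 257.9 in klotho-deficient roots and 154.8, 9.4 and 122.5 in wild type, so the genotypes overlapped. It was above background on 2 klotho-deficient arrays and on no wild-type array, though wild-type replicate 1 was close to that line, and no fold is given.

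The inhibitory Smads differed between arrays of the same genotype more than between genotypes. Smad6, which blocks BMP type I receptors, gave 618.4, 302.1 and 1458.4 on klotho-deficient replicates 1, 2 and 3 and 500.9, 581.6 and 824.7 in wild type. Smad7, which blocks both BMP and TGF-beta receptors, gave 3239.9, 2756.7 and 5578.5 against 2888.5, 3276.8 and 3775. For both, klotho-deficient replicate 3 was the highest and klotho-deficient replicate 2 the lowest of all 6 arrays. The genotype differences were 0.06 ± 0.58 and 0.16 ± 0.31 (adjusted p = 0.991 and 0.937 in limma), and that of Smad7 turned to -0.14 without klotho-deficient replicate 3. The brightest Smad7 probe set can share probes with other transcripts by its suffix (_x_at). The second Smad7 probe set, without that suffix, had the same highest and lowest arrays, at 2089.3 and 571.8.

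All 5 target genes, Id1, Id2, Id3, Id4 and Atoh8, were highest on klotho-deficient replicate 3, and all but Id4 were lowest on klotho-deficient replicate 2. The Id proteins lack a DNA-binding domain and hold bHLH factors inactive, and Atoh8 is a bHLH factor. Id1 gave 1055.5, 967 and 1905.4 against 1046.6, 1017.4 and 1781.6. Id2 gave 12084.8, 11107.5 and 17706.1 against 12019.4, 13379.7 and 11571.6. Id3 gave 7605.2, 5013.6 and 9475 against 5778.2, 6281.8 and 8528.8. The highest wild-type array came close to klotho-deficient replicate 3 for Id1 and Id3 and less so for Id2. Atoh8 varied most among the targets, at 840, 239.8 and 1505.7 against 580.1, 888.1 and 479.8, a 6.279-fold span between klotho-deficient replicates 2 and 3.

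Id4 had the largest genotype difference of the 5 targets. It gave 18014.1, 12042.7 and 18956.1 against 14939, 11910.6 and 10687.4 (0.37 ± 0.25, adjusted p = 0.831 in limma), which ran from 0.25 without klotho-deficient replicate 3 to 0.58 without klotho-deficient replicate 2. Its other probe sets gave larger values, 0.97 for 1450928_at (5603.6, 5060.1 and 9739.7 against 3906.7, 4276.2 and 2213.7) and 0.90 for 1423259_at. The former did not overlap between genotypes, as for 5.96% of all probe sets in this direction, and had an adjusted p of 0.918 over all probe sets in limma. Id2's other probe sets gave 0.21 and 0.04. The other target differences were 0.01 for Id1, 0.12 for Id2, 0.07 for Id3 and 0.10 for Atoh8. All 5 were thus above 0, but 3 were above 0 under quantile normalization and 1 without klotho-deficient replicate 3.

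Across the 30 members above background, klotho-deficient replicate 3 was the highest of the 6 arrays in 15 (50%, against 24.5% of all genes above background) and klotho-deficient replicate 2 the lowest in 15 (50%, against 20.7%). Both held in 9 (30%, against 7.58%). These arrays were singled out after the values of the members were seen, so the shares describe the pattern and do not test it. By role, klotho-deficient replicate 3 was highest in 5 of 5 targets, 3 of 5 ligands, 3 of 5 Smads, 3 of 7 antagonists and 1 of 8 receptors. With quantile normalization the counts for the 30 genes were again 15 and 15, against higher shares of all genes, 28.4% and 25.4%. With median centring they were 20 and 21, against 41.5% and 37.3% of all genes. Spiked hybridisation controls had a median of 18580 on klotho-deficient replicate 3 and 23360 to 29030 on the other arrays, and the summed level of 8 mesothelial markers was 23230 on that array and 33260 to 58500 elsewhere. Their part in this pattern was not tested. Both arrays at the ends of this pattern were klotho-deficient and lacked Y-linked transcripts.

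**Figure D5:**
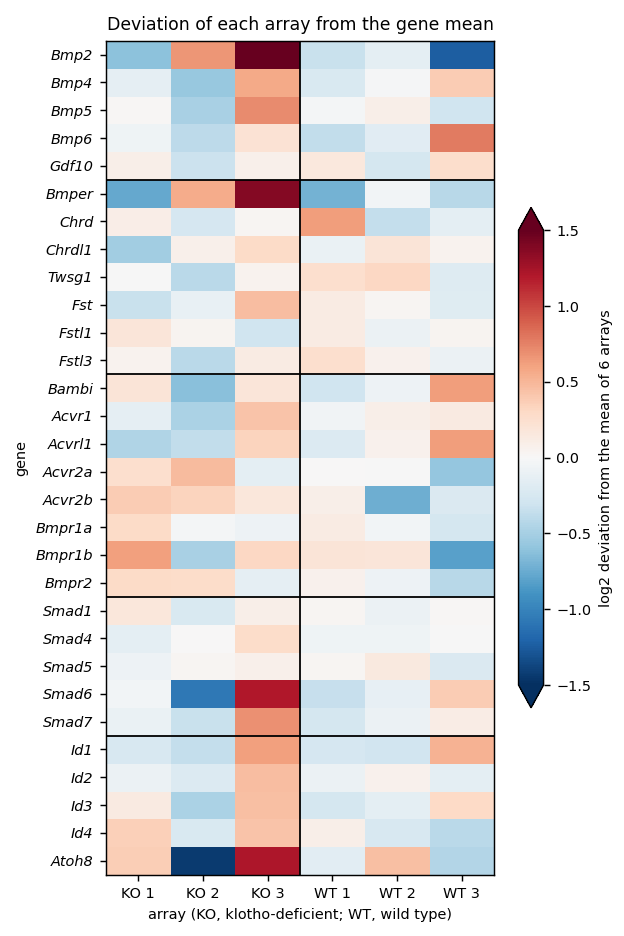
Deviation of each array (columns) from the mean log2 signal of each of the 30 BMP pathway genes above background (rows, grouped by role from ligands at the top to targets at the bottom); the colour scale is log2 and ends at -1.5 and 1.5. Klotho-deficient replicate 3 is mostly red and replicate 2 mostly blue among ligands, Smads and targets.

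Promoters are shown for the inhibitory Smad and target genes that the promoter table held. These genes were chosen after their values were seen, since they shared their highest array. Smad7 and Id1 are not shown. Sequence motifs that Smads are known to bind were searched in RefSeq promoters of GRCm38.p6, taken from 250 bases before to 50 bases after the gene start: GTCTAGAC, the palindromic Smad-binding element, and GGCGCC, a GC-rich element bound by Smad1 and Smad5. Each motif reads the same on both strands, and neither contains the other. Of the 37 listed genes, 24 matched the promoter table, with 28 promoters. Printed are the first 270 bases of each promoter, 5′ to 3′ along the gene, with any motif in capitals, for Smad6 (chr9:64022040-64022309 on the minus strand), Id2 (chr12:25096073-25096342 on the minus strand), Id4 (chr13:48260866-48261135 on the plus strand), Id3 (chr4:136143572-136143841 on the plus strand) and Atoh8 (chr6:72235558-72235827 on the minus strand).
Smad6: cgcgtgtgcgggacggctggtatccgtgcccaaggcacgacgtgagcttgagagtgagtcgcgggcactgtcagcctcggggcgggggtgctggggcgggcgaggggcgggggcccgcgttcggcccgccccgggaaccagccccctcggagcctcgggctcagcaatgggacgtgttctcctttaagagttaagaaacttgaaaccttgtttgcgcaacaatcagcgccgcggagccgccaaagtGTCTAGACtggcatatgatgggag
Id2: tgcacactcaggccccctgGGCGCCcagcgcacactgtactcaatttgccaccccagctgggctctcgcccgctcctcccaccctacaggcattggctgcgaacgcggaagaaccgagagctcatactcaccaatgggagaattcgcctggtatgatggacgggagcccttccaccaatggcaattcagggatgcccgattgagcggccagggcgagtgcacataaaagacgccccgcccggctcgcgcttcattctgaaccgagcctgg
Id4: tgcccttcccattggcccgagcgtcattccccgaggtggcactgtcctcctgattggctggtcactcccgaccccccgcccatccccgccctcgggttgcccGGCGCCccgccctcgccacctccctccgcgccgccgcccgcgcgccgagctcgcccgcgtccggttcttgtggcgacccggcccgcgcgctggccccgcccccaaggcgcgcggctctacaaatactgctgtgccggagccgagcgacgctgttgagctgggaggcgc
Id3: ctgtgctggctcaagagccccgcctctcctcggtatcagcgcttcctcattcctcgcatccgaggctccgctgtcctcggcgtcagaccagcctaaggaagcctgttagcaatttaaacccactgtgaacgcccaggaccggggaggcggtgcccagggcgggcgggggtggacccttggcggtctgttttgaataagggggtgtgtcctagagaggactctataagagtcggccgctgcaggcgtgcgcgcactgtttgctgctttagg
Atoh8: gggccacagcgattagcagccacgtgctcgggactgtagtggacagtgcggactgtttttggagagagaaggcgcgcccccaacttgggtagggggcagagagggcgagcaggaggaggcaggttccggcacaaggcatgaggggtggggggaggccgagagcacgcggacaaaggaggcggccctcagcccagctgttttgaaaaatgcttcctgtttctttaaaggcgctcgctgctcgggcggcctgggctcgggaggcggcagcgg
GTCTAGAC was found in 1 of the 28 promoters, that of Smad6, where it began at position -4 from the gene start, against 0.213% of all 32851 promoters. GGCGCC was found in 10 of the 28 promoters (35.7%, against 11.9% of all promoters), which belonged to 9 genes. These were the targets Id2, at position -231, and Id4, at position -148, and also Bmpr2, Bmpr1a, Grem1, Chrd, Smad5, Smad9 and Gdf10, so the motif was not limited to targets or feedback genes. Neither motif was found in the windows of Id3 or Atoh8. A match describes the letters and does not show binding. GGCGCC holds only G and C, and the printed stretches were 61.9% (Id3) to 75.2% (Id4) G and C. The comparison with all promoters did not match base composition, and its part in the shares was not tested.

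Other genes of the pathway were taken from a list of 100, of which 92 were measured and 73 were above background. In limma 0 passed over all genes; at an unadjusted p under 0.05, 1 of the 92 was higher and 4 were lower (3.25% and 3.16% of all genes), and the genotypes did not overlap in 3 higher and 6 lower (6.63% and 6.84%). All 5 genes with an unadjusted p under 0.05 were secreted factors. Of the 92 measured, 13 were other ligands and 21 other antagonists and extracellular modulators, and 5 genes are too few to read a class from.

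Vwc2 (brorin), a secreted chordin-like BMP antagonist, gave 2290.3, 2902.2 and 4257.6 in klotho-deficient roots and 1057.2, 1599 and 1722.3 in wild type. Every klotho-deficient array was above every wild-type array, including replicate 1, a 2.134-fold difference (1.09 ± 0.32, adjusted p = 0.671 in limma). Its probe set can share probes with other transcripts by its suffix (_x_at), and its other probe set exceeded background on 1 array.

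The 4 lower genes were Sost, Smoc2, Htra1 and Gdf9. Sost (sclerostin), a secreted Wnt antagonist of the family that includes BMP antagonists, gave 2350.8, 1442.8 and 2554.6 against 3956.7, 4615.2 and 3094.6 (-0.90 ± 0.29, adjusted p = 0.723 in limma), and its dimmer probe set gave -0.40. Smoc2, a matricellular protein related to the BMP inhibitor Smoc1, gave 3858, 3890.7 and 3934.8 against 5398.4, 5258.1 and 6674.8 (-0.56 ± 0.18), with its second probe set at -0.61 and also without overlap. The klotho-deficient arrays of Smoc2 lay close together. Htra1, a secreted serine protease that can restrain TGF-beta family signals, gave 15424.3, 12150.4 and 16748.8 against 20976.2, 19747.9 and 20679.8 (-0.48 ± 0.19, adjusted p = 0.77 in limma). That probe set also has the suffix _x_at, and the second Htra1 probe set gave -0.55 with overlap. Gdf9, best known as an oocyte factor, was below background in klotho-deficient roots and above it on 2 of 3 wild-type arrays, and its mean over all 3 wild-type arrays was at least 1.329-fold higher, taken against the background level.

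Intracellular regulators of the pathway stayed within 0.5 of 0 in 25 of 25 cases, with a median of 0.09. Lemd3 (MAN1), an inner nuclear membrane protein that binds Smads, was 4312 ± 564.4 against 3330 ± 423.7 (0.37 ± 0.20). Smurf2, a ubiquitin ligase for Smads and their receptors, was 13600 ± 908 against 16250 ± 718 (-0.26 ± 0.16). Ppm1a, a Smad phosphatase, was 11160 ± 695.7 against 9810 ± 362.4. The arrays of these 3 genes did not overlap between genotypes, and none had an unadjusted p under 0.05.

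Other receptors and further targets overlapped between the genotypes except Tbx2, a transcription factor of the outflow tract and valve region, which measured 246.4 ± 67.13 against 361.1 ± 25.7 (-0.59 ± 0.26, adjusted p = 0.77 in limma). Of 10 other receptors and co-receptors above background, 4 were higher and 6 lower (median -0.11). Of 15 further targets above background, 9 were higher and 6 lower (median 0.07).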

How the data were processed

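Aortic root RNA was hybridised to Affymetrix mouse arrays after amplification and biotin labelling with NuGEN kits, per the labels' protocols. The authors deposited linear intensity values for 45101 probe sets; the submitters' processing notes list RMA, but no source says how linear values were obtained. With 2% trimmed from each end, all arrays averaged 1500, so the deposited intensities had been scaled. Dim values have no floor, so their differences are unstable; the number of arrays limits precision.

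Values were log2-transformed with no pseudocount. Of the probe sets, 34945 had 1 gene in the platform annotation, 932 several and 9160 none, and 64 were controls; the one of highest mean log2 stood for a gene. The test was that of limma 3.58.1 under R 4.3.3 (lmFit, eBayes, two-sided, Benjamini-Hochberg over 18193 genes; 4 residual and 2.1 prior degrees of freedom), tested on simulated data. The members, lists and tests were chosen with earlier results of these data known. Members are described array by array where genotypes did not overlap, the unadjusted p was under 0.05, or the difference or level led its role, which gave 12 genes; other members so described were chosen after their values were seen. Other pathway genes are described at an unadjusted p under 0.05, and those without overlap were added after their values were seen. Alternatives tried were other normalizations, offsets of 16 and 100, a filter on dim genes, the mean of probe sets, other variance models, a replicate block, a Y-linked covariate, thresholds of 0.1 and 0.2, and arrays left out; a fit over all probe sets was added after the data were seen. Figures were drawn with matplotlib 3.10.9.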

Additional observations from a re-analysis of the deposited data

How the results depend on the processing

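No member passed the adjusted p threshold under any alternative that tested it (0 called by limma in each), and the median difference of the members stayed between -0.12 and 0.15. At an unadjusted p under 0.05 the main counts were 0 members higher and 1 lower, and without overlap 1 and 1; for other pathway genes they were 1 and 4. Of the 12 genes described by rule, 5 (Acvr2b, Acvrl1, Gdf5, Id4 and Twsg1) kept their sign and 7 did not. Quantile normalization gave 2 other pathway genes higher and turned Fstl1 to 0.02, and median centring gave 3 members higher without overlap and 2 other pathway genes higher. Fitting only genes above background gave 1 member higher, 0 lower and 0 lower without overlap, since Gdf5 is left out. An offset of 100 gave 1 member higher. The mean of all probe sets gave 1 member higher, 2 lower, 2 higher and 2 lower without overlap, and Bmpr1a at -0.52. A trended, robust prior gave 2 members and 2 other pathway genes higher. Array weights gave 7 other pathway genes lower, Bmp6 at 0.05 and Fstl1 at 0.04. The covariate for arrays without Y-linked transcripts leaves only klotho-deficient replicate 1 against the wild-type arrays, so it does not adjust a genotype estimate. It gave Bmp2 at -0.04, Bmper at -0.38, Fstl1 at 0.16 and Smad7 at -0.02. Without replicate 3 of both genotypes there were 0 members lower, 3 higher and 7 lower without overlap, and 4 higher and 7 lower other pathway genes, with Bmp6 at 0.05, Fstl1 at 0.10 and Smad7 at -0.04. Leaving out 1 array at a time gave 0 to 2 members higher, 1 to 5 higher and 1 to 3 lower without overlap, and 1 to 3 higher and 1 to 4 lower other pathway genes; Bmp6 ran from -0.38 to 0.20, Fstl1 from -0.16 to 0.09, Smad1 from -0.05 to 0.15 and Smad7 from -0.14 to 0.37. Fewer arrays overlap less often by construction; for the other shifts the cause was not tested. With the replicate number as a block, 6 other pathway genes were higher, and no member's call changed. Same-numbered arrays correlated at 0.17, -0.01 and 0.16 in their deviations from the group means, and differently numbered arrays at -0.2 to 0.07. These values do not settle whether same-numbered arrays share a batch. The labels name no pairing, so the numbers were not taken to pair the samples.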
